A study of Mus musculus with 6 samples.

Results

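The 9 genes described here encode transcription factors that build and hold the hepatocyte state: Hnf4a, Foxa1, Foxa2, Foxa3, Cebpa, Cebpb, Prox1, Onecut1 and Nr1h4. They were chosen by name, and all 9 were found by symbol among the 49585 genes of the count table. Their transcripts were sequenced from polyA RNA of AML12, a mouse line of hepatocyte origin derived from animals carrying a transforming growth factor alpha transgene. Cells were transfected with a construct that carries the open reading frame of EGFP, a fluorescent protein that serves as the control, or that of Zac1, the zinc-finger factor encoded by Plagl1, and RNA was taken 24 h later. Each group has 3 libraries, EGFP 1, 2 and 3 and Zac1 4, 5 and 6. The labels do not give the promoter of the constructs or the share of cells that took them up, nor do they name separate cultures for the libraries of a group. P-values therefore measure only how these libraries spread, and that spread may be technical. In such bulk RNA, fewer cells that express a gene and less RNA per cell cannot be told apart.

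Liver factors work as a network in which most members bind the promoters or enhancers of the others. HNF4A, a nuclear receptor, and the FOXA proteins, forkhead factors that open chromatin, switch on genes for plasma proteins, lipoproteins and gluconeogenesis; C/EBP-alpha supports metabolic genes and restrains division, and C/EBP-beta serves the acute-phase response and regeneration. ONECUT1 (HNF6) acts in liver and bile duct development, PROX1 is a homeodomain protein that represses targets of HNF4A and of the related receptor NR5A2, and FXR, the bile acid receptor encoded by Nr1h4, controls bile acid synthesis and export.

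Library totals ran from 14801240 to 18302538 counts, and the 3 Zac1 libraries were the deeper ones. The construct's gene Plagl1 had 39, 79 and 67 counts in EGFP and 106033, 135108 and 148382 in Zac1. Of all genes, 12130 had a mean of at least 10 counts over the libraries and were tested with edgeR. The first principal component of the tested genes (58.5% of the variance) separated the groups, and the second (15.6%) set EGFP 1 and Zac1 4 (18.5 and 11.8) apart from the other 4 libraries (-10.6 to -3.5). Levels are given below in CPM (counts scaled to a common library size), and, where genes are compared with each other, in RPKM, which is CPM per kilobase of exon.

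At baseline all 9 factors were read in every EGFP library, but at levels that spanned 206-fold. Nr1h4 led with 84 ± 3.98 RPKM in the EGFP libraries (SD, n = 3), above 97.8% of the 21734 protein-coding genes. Cebpb (43.7 ± 1.69), Hnf4a (41.7 ± 2.05) and Foxa2 (25.1 ± 1.03) followed, each above at least 90.2% of protein-coding genes. A lower tier held Cebpa (5.78 ± 0.584), Foxa1 (4.13 ± 0.284) and Prox1 (3.87 ± 0.251), below the median of 7.77 RPKM for tested protein-coding genes. Among all 21734 protein-coding genes, Cebpa stood above 70%, Foxa1 above 65.5% and Prox1 above 64.8%. Foxa3 (1.59 ± 0.115) and Onecut1 (0.407 ± 0.0479) were lowest, above 57.4% and 51.3% of protein-coding genes. Onecut1 rested on 22 to 28 reads per EGFP library. Of the 8 pairs of neighbours in this order, Cebpb with Hnf4a and Foxa1 with Prox1 overlapped between EGFP libraries and do not differ beyond their spread; the other 6 pairs did not overlap. With the longest transcript as the length of a gene, Hnf4a (46.1 RPKM) stood before Cebpb (43.7), and no other place changed.

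**Figure D1:**
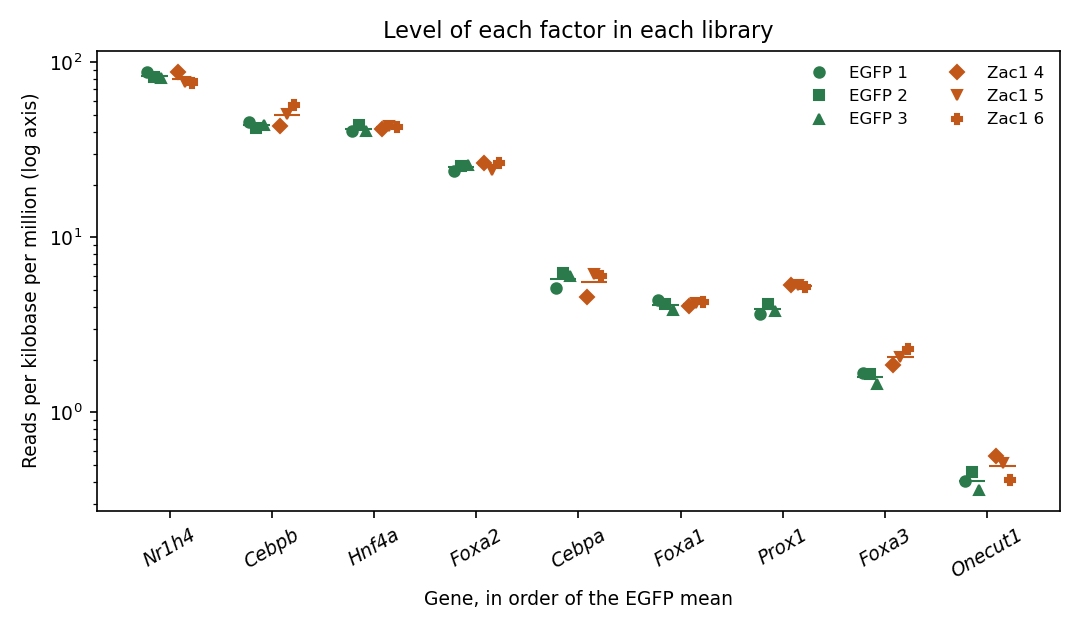
Level of the 9 factors in each library, in RPKM on a log axis; green symbols are the EGFP libraries, orange symbols the Zac1 libraries, and short bars the group means. Genes stand in the order of their EGFP mean, from Nr1h4 (84) to Onecut1 (0.407), and the groups are apart for Prox1 and Foxa3.

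Of the 9 factors, 1 rose with Zac1 and 0 fell (edgeR quasi-likelihood test, two-sided, Benjamini-Hochberg adjusted over 12130 genes, threshold 0.05). Across all tested genes 3.78% were called, 3.12% as higher and 0.668% as lower; the 81 lower calls were 19 without Zac1 5 and 379 without Zac1 4. At an unadjusted p under 0.05 there were 3 factors, Prox1, Cebpb and Foxa3, where 15.8% of all tested genes had such a p; DESeq2 called Prox1 alone. The groups did not overlap for 2 of the 9, Prox1 and Foxa3, both higher in Zac1; among all tested genes 20.6% did not overlap. Fitted log2 fold changes were above 0 for 7 factors and below 0 for 2, with a median of 0.04 beside -0.002 for all tested genes, and 5 of the 9 lay within 0.1 of 0.

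**Figure D2:**
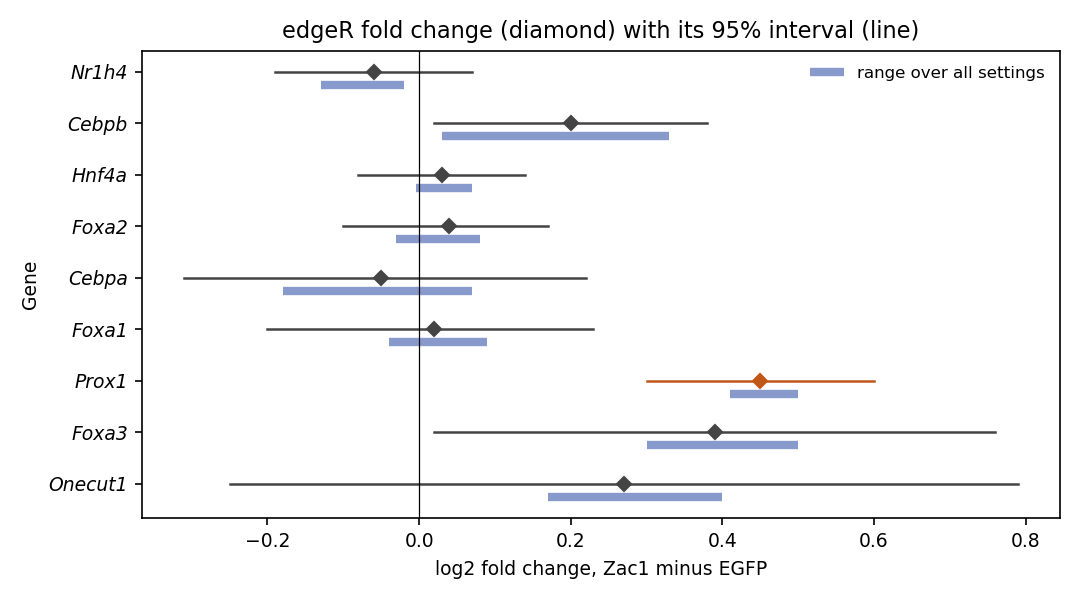
Log2 fold change of each factor, Zac1 minus EGFP, from the edgeR fit: diamonds are estimates, thin lines 95% intervals, and blue bars the range of the estimate over this fit and all alternative settings. Prox1 (orange, 0.45) is the one factor past the test, and the interval of Onecut1 (-0.25 to 0.79) is the widest.

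The factor that rose was Prox1 (ENSMUSG00000010175; GRCm38 chromosome 1, 190118035 to 190170714, minus strand). EGFP libraries held 462, 519 and 472 of its reads and Zac1 libraries 721, 767 and 798. Scaled to library size, this was 30.7, 34.8 and 31.9 CPM in EGFP and 44.9, 45 and 43.4 CPM in Zac1. All Zac1 libraries stood above all EGFP libraries, and the spread within Zac1 (coefficient of variation 2.05%) was smaller than within EGFP (6.49%). The fold change was 1.37 (95% interval 1.23 to 1.52; log2 0.45, SE 0.07, adjusted p = 0.0019). It passed the test in all 21 fits made, alternatives and leave-outs included, with log2 values from 0.41 to 0.5 and adjusted p of at most 0.0248, which was reached without EGFP 3. The exact permutation test on the same values gave p = 0.1, the smallest that 3 against 3 libraries allow. Per kilobase, the ratio of Prox1 to Hnf4a was 0.0901, 0.0942 and 0.0941 in EGFP and 0.128, 0.124 and 0.121 in Zac1 (exact permutation p = 0.1, 0.3 after adjustment over 6 ratios). Antisense to Prox1 runs Prox1os, which shares 133 bases of exon with it and had 14 reads in EGFP and 9 in Zac1.

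RefSeq places 2 starts of Prox1 1312 bases apart, and the counts per gene do not tell them apart. Their promoter windows, from 250 bases before to 50 bases after each start, are shown because this gene carries the one change among the 9. They lie on the minus strand at chr1:190170778-190171077 and chr1:190169466-190169765 (GRCm38.p6) and are printed in the direction of transcription.
Prox1 upstream start: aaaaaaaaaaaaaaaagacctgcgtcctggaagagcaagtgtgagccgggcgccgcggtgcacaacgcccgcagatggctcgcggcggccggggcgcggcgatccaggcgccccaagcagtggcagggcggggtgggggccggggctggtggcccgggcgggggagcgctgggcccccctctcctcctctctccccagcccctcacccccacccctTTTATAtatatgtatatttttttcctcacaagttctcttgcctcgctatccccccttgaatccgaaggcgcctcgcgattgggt
Prox1 downstream start: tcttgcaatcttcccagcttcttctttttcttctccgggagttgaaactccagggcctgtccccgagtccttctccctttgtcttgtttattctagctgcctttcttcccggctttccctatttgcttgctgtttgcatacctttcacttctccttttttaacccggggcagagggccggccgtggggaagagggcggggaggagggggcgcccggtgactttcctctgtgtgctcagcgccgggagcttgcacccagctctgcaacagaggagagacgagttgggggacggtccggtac
Their GC content is 64.3% and 57.3%, above 80.4% and 63.5% of the 32851 windows in the RefSeq table. In the direction of transcription, the capitals of the upstream window begin 34 bases before the start. They read TTTATA as printed and TATAAA, the letters of the TATA box, on the opposite strand. On either strand, 13.6% of all windows and 5 of the 13 windows of the 9 factors hold these letters. Counted in the direction of transcription, the match begins 208 bases before the start in 1 window of Foxa2, on the opposite strand. In the window of Cebpb it begins 21 bases after the start. The match is of letters at any place in the window. Neither Prox1 window holds the letters GGGGCCCC, the core of a site described for Zac1, on either strand, and 1.08% of all windows do.

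PROX1 is also the factor that sets lymphatic endothelial identity, so endothelial markers were counted beside it. Of 12 listed, 10 were below the count minimum, and Lyve1, Pdpn, Emcn, Tie1 and Clec4g had 0 reads in every library. Flt4, the receptor of lymphatic growth factors, was high for that list at 61.8 ± 1.62 CPM in EGFP and rose to 72.7 ± 3.09 CPM in Zac1 (SD, n = 3; log2 fold change 0.24, SE 0.06, edgeR adjusted p = 0.0413). That call was lost without any library but Zac1 4 (adjusted p up to 0.205), with DESeq2 (0.0571), under a filter at a mean of 50 counts (0.0573) and with offsets for GC content (0.0626). Stab1, the other marker tested, was at -0.02. The summed level of the list, most of it Flt4, was 72.8 to 75.5 CPM in EGFP and 83.3 to 88 CPM in Zac1. That sum therefore adds little to the values of Flt4 alone. The part of endothelial markers in the Prox1 result was not tested.

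Among 9910 genes with a mean of 50 counts or more, leaving out provisional symbols such as gene models and Riken clones, those whose log2 CPM followed Prox1 most closely over the 6 libraries were Cbarp, Castor2 and Cyp26b1. Pearson's r was 0.995 for each, as a description over 6 points that fall into 2 groups. Cyp26b1, which degrades retinoic acid, went from 1.79 to 6.03 CPM, Castor2, a relative of the arginine sensor CASTOR1 of the mTORC1 pathway, from 5.41 to 8.41 CPM, and Cbarp, which binds calcium channel beta subunits, from 4.31 to 6.34 CPM. Both Cyp26b1 and Castor2 passed the edgeR test (adjusted p = 0.000346 and 0.0138) and Cbarp did not (0.051). These genes were picked for following Prox1, whose groups did not overlap, over the same 6 libraries. Their p-values between the groups therefore rest on the values used to pick them and are no evidence independent of the correlation.

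Hnf4a (ENSMUSG00000017950; chromosome 2, 163506808 to 163572910, plus strand) had no called change. Its libraries gave 196, 213 and 195 CPM in EGFP and 202, 210 and 207 CPM in Zac1, and the groups overlap. The fold change was 1.02 with a 95% interval of 0.947 to 1.11 (edgeR adjusted p = 0.812). Its paralog Hnf4g had 7 reads in all EGFP and 4 in all Zac1 libraries, so Hnf4a made up 99.9% of the pair per kilobase in both groups. The gene has 2 RefSeq starts 40298 bases apart: the upstream one is known for fetal liver, gut and pancreas and the downstream one for adult liver. The counts per gene sum both. The window of the downstream start (chr2:163546905-163547204, plus strand) is shown as that of adult liver; it holds neither GGGGCCCC nor TATAAA and has a GC content of 57.3%.
Hnf4a downstream start: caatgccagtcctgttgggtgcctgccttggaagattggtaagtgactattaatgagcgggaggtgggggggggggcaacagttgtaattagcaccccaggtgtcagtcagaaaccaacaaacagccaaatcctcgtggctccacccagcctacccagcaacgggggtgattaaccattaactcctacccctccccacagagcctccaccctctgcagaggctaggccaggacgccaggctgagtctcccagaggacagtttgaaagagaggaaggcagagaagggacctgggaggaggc

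Nr1h4 (ENSMUSG00000047638; chromosome 10, 89454234 to 89533585, minus strand) had the highest level of the 9 per kilobase and no called change. Its libraries gave 204, 190 and 187 CPM in EGFP and 203, 178 and 176 CPM in Zac1. The highest value of each group came from EGFP 1 and from Zac1 4, which also stood apart on the second principal component. The fold change was 0.96 (95% interval 0.875 to 1.05, edgeR adjusted p = 0.701). Per kilobase, Nr1h4 took 74.3 ± 1.48% of the sum with its relatives Nr1h2 and Nr1h3, which encode the oxysterol receptors LXR-beta and LXR-alpha, in EGFP, and 74.7 ± 2.71% in Zac1 (SD, n = 3). The ratio of Hnf4a to Nr1h4 per kilobase was 0.497 ± 0.0377 in EGFP and 0.532 ± 0.0501 in Zac1 (exact permutation p = 0.4, adjusted 0.48). Most known targets of the receptor were scarcely read. Of 25 listed FXR targets, 20 were below the count minimum and 7 of these had 0 reads in every library. The bile salt exporter gene Abcb11 had 19 reads in all EGFP and 16 in all Zac1 libraries. Nr0b2 (SHP), the repressor that FXR induces, had 1, 0 and 1 reads in EGFP and 6, 5 and 5 in Zac1, a ratio of 6.98 after scaling to library totals (95% Clopper-Pearson interval 1.64 to 62.5, for counting error only; both genes were chosen after their values were seen). Of the 5 targets tested, Klb (beta-Klotho, which pairs with FGF receptors) fell from 15.4 ± 1.64 to 10.1 ± 0.537 CPM (edgeR adjusted p = 0.00598). Sdc1, the most abundant of the list per kilobase, was at 0.04 on the log2 scale.

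Foxa2 was the main FOXA gene of the line. Per kilobase it made up 79.8%, 81.4% and 83.1% of the FOXA sum in EGFP and 81.7%, 79.6% and 80.1% in Zac1. Foxa1 took 13.4 ± 1.2% in EGFP and 13 ± 0.58% in Zac1 (SD, n = 3). Foxa2 (ENSMUSG00000037025; chromosome 2, 148042877 to 148046969, minus strand) was at 56.8, 60.1 and 61.6 CPM in EGFP and 62.8, 57.9 and 62.8 CPM in Zac1. Its fold change was 1.03 (95% interval 0.935 to 1.13). Foxa1 (ENSMUSG00000035451; chromosome 12, 57540628 to 57546916, minus strand) was at 14.6, 13.8 and 12.8 CPM and then 13.5, 14 and 14.2 CPM, with a fold change of 1.01 (0.873 to 1.17). Both genes overlapped between the groups (edgeR adjusted p = 0.82 and 0.957).

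Foxa3 (ENSMUSG00000040891; chromosome 7, 19013284 to 19023538, minus strand), known for glucose homeostasis in fasting, was the scarcest FOXA gene and did not overlap between groups. It was read 51, 50 and 44 times in EGFP and 61, 72 and 86 times in Zac1, which is 3.39, 3.35 and 2.97 CPM against 3.8, 4.23 and 4.67 CPM. The fitted fold change was 1.31 (95% interval 1.01 to 1.69), and it did not pass the test over all genes (edgeR adjusted p = 0.293). Its share of the FOXA sum was 5.55%, 5.28% and 4.66% in EGFP and 5.75%, 6.75% and 6.94% in Zac1, with no overlap. The ratio of Foxa2 to Foxa3, which no scaling of libraries can move, was 15.9 ± 1.77 in EGFP and 12.5 ± 1.48 in Zac1 (two-sided exact permutation p = 0.1, which is the lowest possible; 0.3 after adjustment over 6 ratios). The ratio of Foxa2 to Foxa1 was 6.11 ± 0.666 and 6.18 ± 0.353 (SD, n = 3; exact permutation p = 0.9, adjusted 0.9).

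Cebpb exceeded Cebpa in every library. Per kilobase the ratio of Cebpb to Cebpa was 8.86, 6.74 and 7.31 in EGFP and 9.46, 8.22 and 9.47 in Zac1, with overlapping groups (exact permutation p = 0.2, adjusted 0.3). Cebpa (ENSMUSG00000034957; chromosome 7, 35119293 to 35121928, plus strand) was at 13.5, 16.4 and 15.8 CPM in EGFP and 12.1, 16.2 and 15.9 CPM in Zac1. EGFP 1 and Zac1 4 were the lowest of their groups, and the fold change was 0.967 (95% interval 0.805 to 1.16, edgeR adjusted p = 0.896).

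Cebpb (ENSMUSG00000056501; chromosome 2, 167688915 to 167690418, plus strand) passed the test under some settings only. Its libraries gave 68.3, 63.2 and 65.9 CPM in EGFP and 65.1, 75.9 and 85.7 CPM in Zac1. Zac1 4 lay within the EGFP range, while Zac1 5 and Zac1 6 lay above it, and the spread within Zac1 (coefficient of variation 13.6%) exceeded that within EGFP (3.86%). The log2 fold change was 0.2 (SE 0.08, 95% interval 0.02 to 0.38) and did not pass over all genes (edgeR adjusted p = 0.248). Without Zac1 4 it was 0.3 on the log2 scale and passed (adjusted p = 0.0104), as it did with voom quality weights (0.22, adjusted p = 0.037) and without EGFP 1 and Zac1 4 together (0.33, adjusted p = 3.54e-05). That last fit had nearly 1 common variance for all genes (prior degrees of freedom 1563, against 10.02 with all libraries). Its p-value rests on that shared variance and is no firmer evidence. What made it smaller was not tested. A term in the edgeR design that set EGFP 1 and Zac1 4 apart was added after seeing the data. It left the log2 fold change of Cebpb at 0.2 with an adjusted p of 0.028, at prior degrees of freedom of 34.25. Cebpb thus passed in 4 of 21 fits. Those fits called 963 to 1482 of all genes, against 459 in the main fit. With offsets for GC content the log2 fold change of Cebpb was 0.03 (edgeR adjusted p = 0.902). The transcript of Cebpb is the most GC-rich of the 9 (67.2%). The part of GC content in the Cebpb values was not tested. The antisense gene Tmem189 shares 312 bases of exon with it and had 97 reads in EGFP and 140 in Zac1.

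The promoter window of Cebpb (chr2:167688665-167688964, plus strand, GRCm38.p6) is shown because it is the one among 13 windows of the 9 factors that holds GGGGCCCC, in capitals, beginning 19 bases before the start. The second run of capitals is TATAAA, 21 bases after it. Its GC content, 80.7%, is above that of 99.2% of all windows.
Cebpb start: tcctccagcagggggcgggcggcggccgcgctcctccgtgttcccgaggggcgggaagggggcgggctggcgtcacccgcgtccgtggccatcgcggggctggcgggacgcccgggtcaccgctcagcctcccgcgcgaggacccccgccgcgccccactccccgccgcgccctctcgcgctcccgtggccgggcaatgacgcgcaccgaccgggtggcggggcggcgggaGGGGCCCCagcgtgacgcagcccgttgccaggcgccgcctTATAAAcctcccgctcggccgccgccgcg
The match is a description of the letters and not a site of binding.

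**Figure D3:**
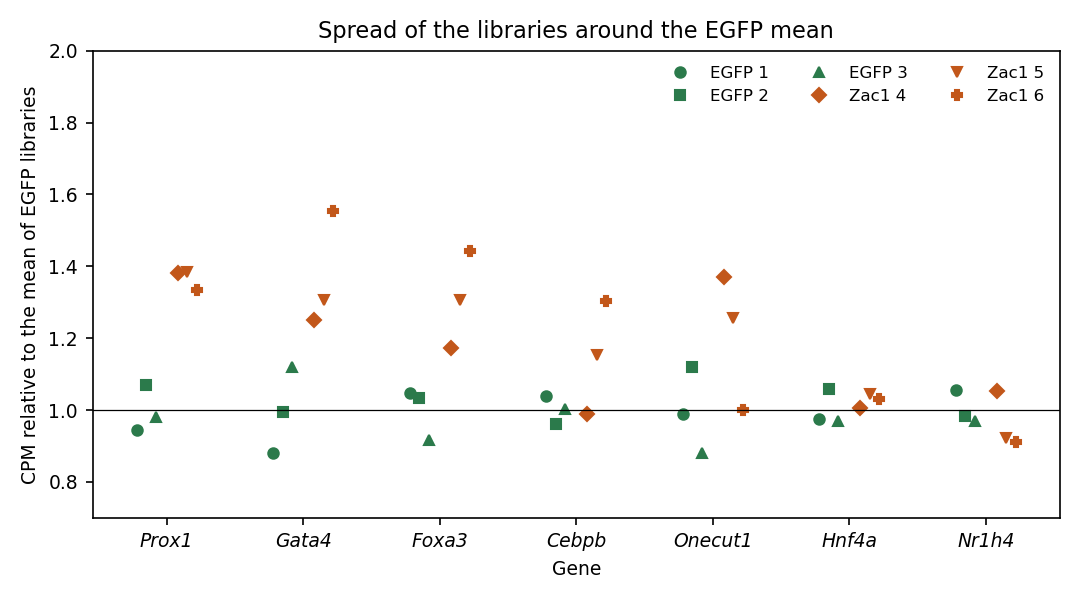
CPM in each library divided by the mean of the EGFP libraries, for 6 of the 9 factors and for Gata4; green symbols are EGFP and orange symbols Zac1 libraries. For Prox1 the Zac1 libraries cluster above the EGFP libraries, and for Cebpb the library Zac1 4 sits among them.

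Onecut1 (ENSMUSG00000043013; chromosome 9, 74861921 to 74891781, plus strand) had the lowest counts of the 9. A gene model on the same strand, Gm20649, shares 2171 of its 4113 exon bases and had 2 reads in EGFP and 0 in Zac1. Reads in shared bases may have gone uncounted, so the level of Onecut1, and its place beside other genes, may be understated; this was not tested. It was read 25, 28 and 22 times in EGFP and 37, 36 and 31 times in Zac1, or 1.66, 1.88 and 1.48 CPM against 2.3, 2.11 and 1.68 CPM. The groups overlap through Zac1 6, and the fold change of 1.21 had an interval from 0.841 to 1.73 (edgeR adjusted p = 0.638), which spans both signs. Its paralog Onecut2 stood at 96.7 ± 0.64% of the ONECUT sum per kilobase in the control and 94.9 ± 0.45% with Zac1 (SD over 3 libraries), without overlap. Part of that difference is Onecut3, on few reads, at 0% of the sum in EGFP and 0.849% in Zac1. The CPM of Onecut2 itself overlapped between groups and was not called (log2 -0.13, edgeR adjusted p = 0.495). The ratio of Onecut2 to Onecut1 was 30.1 ± 5.43 in EGFP and 22.6 ± 1.87 in Zac1, with overlap (exact permutation p = 0.2, adjusted 0.3). Onecut3 had 0 reads in the EGFP libraries and 5, 10 and 9 in the Zac1 libraries, which is 6.98 times a floor of 3 counts over the EGFP group after scaling to library totals; the exact 95% lower limit of the ratio, for counting error only, was 5.25. It was below the count minimum and was chosen after its values were seen.

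**Figure D4:**
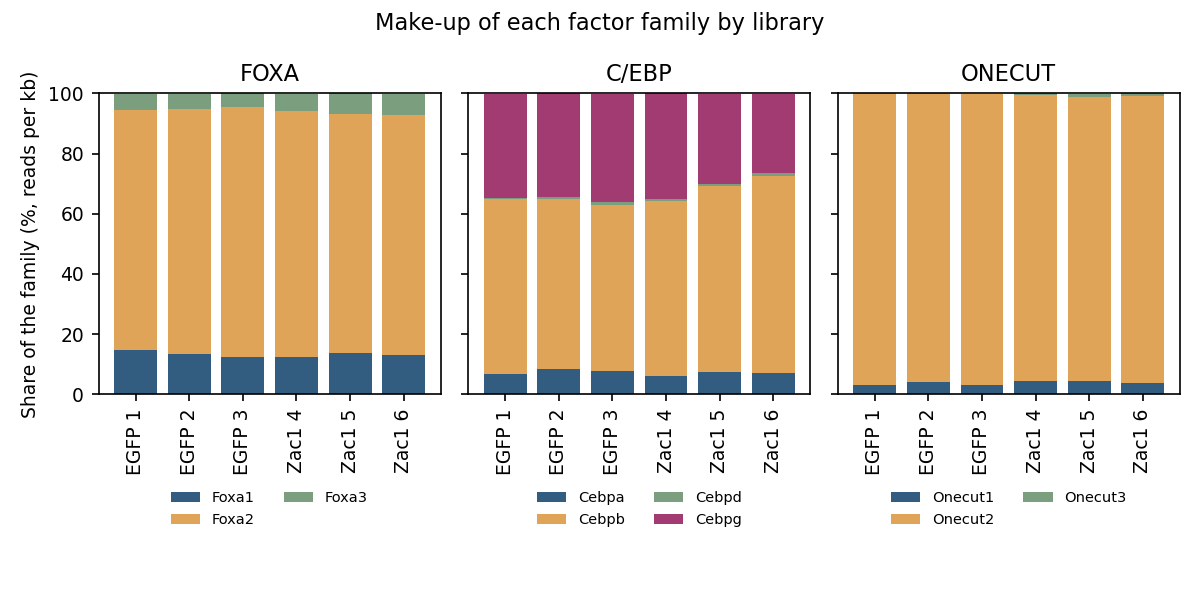
Make-up of the FOXA, C/EBP and ONECUT families in each library, as the share of each gene in the family's summed reads per kilobase; each bar is 1 library and adds to 100%. Foxa2, Cebpb and Onecut2 are the largest part of their family in all 6 libraries.

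Around the 9 factors, 28 of the other liver regulators reported here were tested and 1 of them rose; their median log2 fold change was 0.02. It was Gata4, a zinc-finger factor of early liver, at 20.7, 23.4 and 26.3 CPM in EGFP and 29.4, 30.7 and 36.5 CPM in Zac1. The groups did not overlap, and the mean rose from 23.5 ± 2.78 to 32.2 ± 3.78 CPM (SD, n = 3; log2 0.46, SE 0.1, edgeR adjusted p = 0.0214), a call that did not survive leaving out EGFP 1, EGFP 2, Zac1 5 or Zac1 6 (at most 0.126). Atf5 and Foxm1, the most abundant of the list per kilobase, were at 0.17 and 0.11 and were not called.

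Of 12 genes listed as relatives of the 9 factors, 8 were tested and 0 passed with edgeR (median log2 fold change -0.04); Ddit3, the inhibitory C/EBP of stress, was at 0.13 and Cebpz, which shares the C/EBP symbol but encodes a CCAAT-binding protein of another family, at 0.01. Of 20 coregulators reported here, 19 were tested and 0 passed with edgeR, with log2 fold changes from -0.74 to 0.68. Prmt1 and Trib3, the most abundant per kilobase, were at -0.02 and 0.02 on the log2 scale.

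Over the reported genes of all lists beside the 9 factors, 107 of 212 were tested, 5 rose and 7 fell, or 11.2%, beside 3.78% of all tested genes. These lists were chosen with results known, so the difference is no evidence about them. Among 13 reported HNF4A-type targets tested was Ttr, the thyroxine carrier, which fell (log2 -0.67, SE 0.08, edgeR adjusted p = 0.000211), and Apob, the most abundant, was at -0.09. Among 8 reported FOXA-type targets tested, Ttr fell and so did the canalicular transporter gene Abcc2 (-0.26, adjusted p = 0.0237), a call that ended when EGFP 1 or 3 or Zac1 5 or 6 was left out (at most 0.143). Of 16 C/EBP-type targets tested, 5 fell and 1 rose. Those with the smallest p were Ttr, the prostaglandin synthase gene Ptgs2 (-0.39, adjusted p = 0.00834), the cytokine gene Il6 (-1.63, adjusted p = 0.00953) and haptoglobin, Hp (-0.69, adjusted p = 0.0303); Crp fell (-0.28, adjusted p = 0.0496) and Saa3 rose (0.95, adjusted p = 0.0392), both named after their values were seen. Calls other than that of Ttr were lost in fits with 1 library fewer, while the sizes moved less: Ptgs2 when EGFP 3 or Zac1 6 was left out (at most 0.0595, log2 values over all leave-outs from -0.45 to -0.32), and Il6 without Zac1 5 (0.0698, from -1.98 to -1.43). Hp was lost when EGFP 2 or 3 or Zac1 5 or 6 was left out (at most 0.162, from -0.78 to -0.62). Saa3 (up to 0.194, from 0.72 to 1.13) and Crp (up to 0.237, from -0.31 to -0.22) were lost without any library but Zac1 4. The Crp call was also lost with total-count (0.0539), Plagl1-free (0.0657) or upper-quartile scaling (0.0662), a filter at a mean of 50 counts (0.07), DESeq2 (0.0643), limma on log2(CPM + 1) (0.0567) and GC offsets (0.159). The median log2 fold changes of these 3 lists, over the reported genes, were -0.09, -0.05 and -0.05. The lists share genes, and Ttr counts in each.

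**Figure D5:**
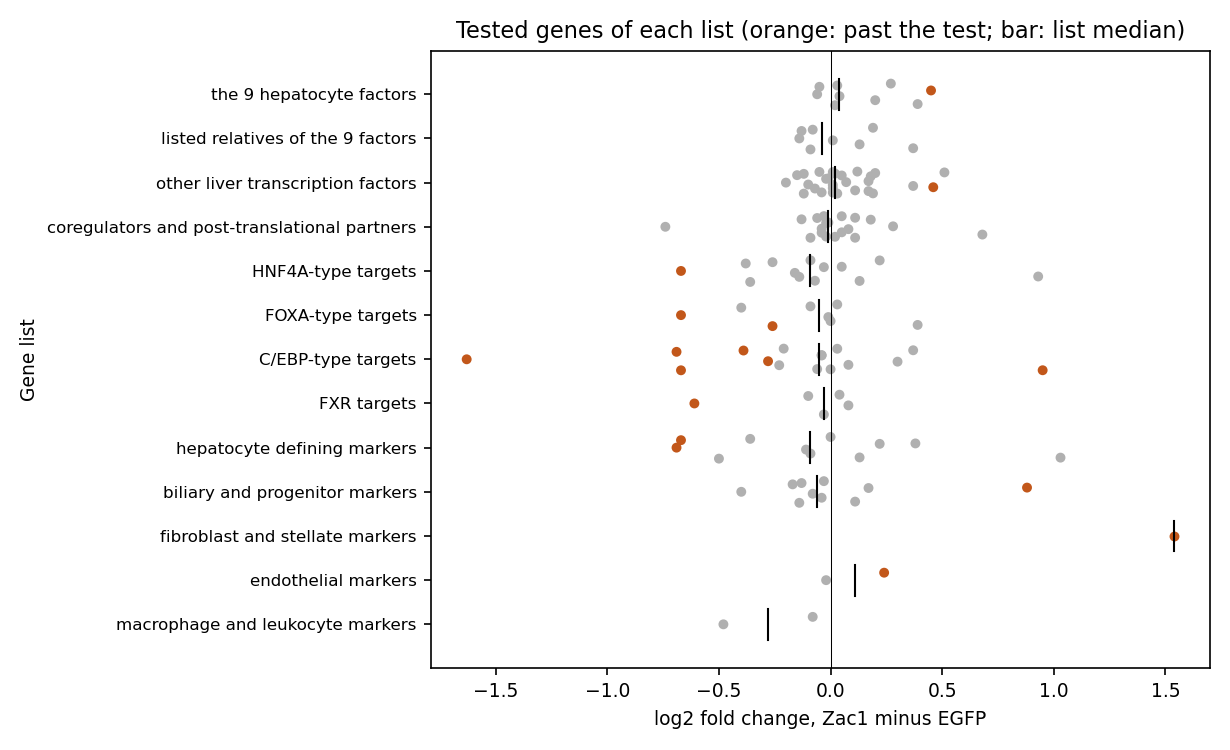
Log2 fold change, Zac1 minus EGFP, of every tested and reported gene in each list; orange points passed the edgeR test, grey points did not, and the black bar is the median of the list. Most lists centre near 0, and the 9 factors run from -0.06 to 0.45.

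The label of a hepatocyte line was checked against defining markers. Of 26 hepatocyte markers, 11 were tested and 15 were below the count minimum, 3 of these with 0 reads in every library (Apoa2, Hpd and Cyp2e1). Apob (1354 ± 150.1 CPM) and Ttr (67.3 ± 2.71 CPM) led per kilobase in EGFP (SD, n = 3), and 0 of the 11 rose while 2 fell, Ttr and Hp. Among all tested genes 0.668% were called lower. Fitted log2 fold changes of the 11 hepatocyte markers were above 0 for 5 and below 0 for 6. Their median was -0.09, with a range from -0.69 to 1.03. Biliary and progenitor markers stood beside them: of 17 reported, 10 were tested, with Spp1 (310.1 ± 1.29 CPM) and Cd24a (366 ± 34.9 CPM) the most abundant per kilobase, and 1 rose, the protease gene St14 (log2 0.88, edgeR adjusted p = 0.0062). The summed level of that list was 1516 to 1629 CPM in EGFP and 1420.4 to 1557 CPM in Zac1. Of 12 fibroblast markers, Col1a1 alone was tested, and it rose at a low level, from 0.649 ± 0.259 to 1.89 ± 0.344 CPM (edgeR adjusted p = 0.0164, and 0.1 at most when EGFP 2 or Zac1 6 was left out, which ended the call), while Lrat, Dcn, Lum and Thy1 had 0 reads. Of 12 macrophage and leukocyte markers, 2 were tested and 0 passed; Cd14 was at -0.08 and Cd68 at -0.48, and Clec4f, Tyrobp, Itgam, Cd3e and Marco had 0 reads in every library.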

How the data were processed

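The authors deposited 1 table of counts per gene, with a column for each of the 6 libraries and no pooling. Tools named in the submitters' processing notes are STAR, HTSeq, FastQC and DESeq2; their settings and the genome build are not given in the sources read for this text. The deposited table is named as normalized, but its values behave as unscaled counts: they are whole numbers with unequal totals, and none of the whole numbers from 1 to 40 is absent from a library. Per the labels' protocols the kit was directional; strand use in counting is unknown, and antisense partners may share reads.

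Symbols, coordinates and exon lengths are those of GENCODE M21 (GRCm38), matched by Ensembl ID (49326 of 49585). CPM and RPKM use TMM-scaled library sizes. Genes averaging 10 or more counts were tested with edgeR 4.0.16 in R 4.3.3 (quasi-likelihood, prior count 0.125), with Benjamini-Hochberg adjustment over all genes, after a test of the script on simulated data. DESeq2 1.42.0 and limma 3.58.1 served alternatives. Intervals of fold changes are 95%; the standard error (SE) is the log2 fold change divided by the square root of F. Promoter windows are from RefSeq (GRCm38.p6; all 9 factors matched), searched on both strands for the Zac1 core and the TATA box as spelled in the text, and for the FOXA motif TGTTTAC, which 3.65% of windows hold, among them that of Foxa1.

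The 9 factors and the lists were chosen with earlier results of these data known, so list counts are no independent evidence. Some listed genes, genes past the test among them, are not reported here and stand in no list, ratio or figure. Named from each list are the genes past the test (the 4 with the smallest p where there were more) and its most abundant genes; ratios within families were chosen after counts were seen.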

Additional observations from a re-analysis of the deposited data

How the results depend on the processing

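Prox1 was higher and past the test in every alternative run, and 0 factors were called lower in any. Counts were less stable. The number of all genes called, 459, was 979 with no filter on low counts, 241 under a filter at a mean of 50 counts, 1297 with voom sample weights, 1461 when EGFP 1 and Zac1 4 were both left out, 1482 with a term that sets these 2 apart (added after seeing the data), and 206 to 963 when single libraries were left out (187 to 584 higher, 19 to 379 lower; 378 and 81 with all libraries, 853 and 608 without both, 831 and 651 with the term). The number of factors called higher was 2 with voom weights, with the term and without EGFP 1 and Zac1 4 together, and 1 to 2 when single libraries were left out; Cebpb was the second. Among 107 other reported list genes tested, 5 were higher and 7 lower. The higher ones were 10 with no filter, 2 under the filter at 50, 10 with voom weights, 11 with the term, 8 without EGFP 1 and Zac1 4 together and 1 to 6 with single libraries left out. The lower ones were 11 with no filter, 13 with voom weights, 16 with the term, 14 without EGFP 1 and Zac1 4 together and 3 to 9 with single libraries left out. Which list genes were tested changed with the filter and may change with libraries left out, so those counts need not be out of 107. The fits with no filter and without both libraries had nearly 1 common variance for all genes (prior degrees of freedom infinite and 1563, against 10.02). Their p-values rest on that shared variance and are no firmer evidence. Onecut1 was not tested under the filter at 50. Of factors not called, signs turned near 0: with GC offsets Hnf4a was at -0.004, Foxa1 at -0.03 and Foxa2 at -0.03; with voom weights Foxa2 was at -0.02 and Cebpa at 0.02; without EGFP 1 and Zac1 4 together Foxa2 was at -0.01. With single libraries left out Foxa1 ran from -0.04 to 0.07, Cebpa from -0.12 to 0.07, and the log2 difference of the Foxa2 to Foxa1 ratio from -0.06 to 0.1. The cause was not tested. No paired analysis was possible because the groups share no replicate number; the term above is a split seen in the data and pairs nothing. Intervals were widest for Onecut1 and Foxa3, with 75 and 145 reads in all EGFP libraries.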
